A study of Mus musculus with 12 samples.

Results

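The 7 genes described here carry arginine through a macrophage. Nos2, Ass1 and Asl make and sustain the nitric oxide branch, Odc1 and Srm belong to the polyamine branch, and Slc7a1 and Slc7a2 bring arginine into the cell. They were chosen by their symbols, and all 7 were found among the 38739 gene rows of the deposited table. The samples were bone marrow-derived macrophages (BMDMs) of mouse in 4 groups of 3 libraries, measured by RNA sequencing. The groups were wild-type C57BL/6J (WT) and cGAS knockout (cGAS-/-) cells, each left untreated with media control (UT) or given LPS of E. coli 026:B6, the endotoxin of Gram-negative bacteria that TLR4 detects. Per the study's methods the mice were young adult males, and the knockout mice were also of C57BL/6J background. The WT mice were bought from a supplier and the knockout mice came from another university, so genotype and colony cannot be told apart. The study's limitations state that the knockout affected every cell of the animal. The labels gave 100 ng/mL of LPS for 1 h, whereas the study's methods gave a higher dose and an exposure of a day, so dose and time could not be settled here. The growth label named cGAS knockout mice for all samples, and the extraction label named neutrophils. The 3 libraries of a group were called technical replicates in the study, so the p-values measure the spread between these libraries, which may be technical.

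As background, inducible nitric oxide synthase (encoded by Nos2) turns arginine into nitric oxide and citrulline. Argininosuccinate synthase (Ass1) and argininosuccinate lyase (Asl) rebuild arginine from that citrulline. On the polyamine side, ornithine decarboxylase (Odc1) turns ornithine, which is made from arginine, into putrescine, and spermidine synthase (Srm) extends putrescine to spermidine. The cationic amino acid transporters CAT-1 (Slc7a1) and CAT-2 (Slc7a2) supply both branches. In textbook accounts of mouse macrophages, Nos2 is the best known mark of classical activation, and LPS raises it.

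Values are TPM, which scale reads by transcript length and by the total of the library. They behave as means over the annotated transcripts of a symbol, so a level of 1 gene should not be set against that of another. Library totals ran from 447189 to 503156 in 11 libraries, and the third LPS-treated WT library stood apart at 709802. Protein-coding genes took 18.5% of that library and 39.7% to 54.4% of the others, and the ferritin pseudogene Fth-ps3 took 31.7% of it and 6.24% to 17.7% of the others. Genes above 0 numbered 12787 in WT LPS library 1 and 12261 in WT LPS library 3, against 15378 to 17573 in the other libraries. The cause of these lower numbers was not tested. Read numbers were not given, so counting error is unknown. Cgas checked the genotype: it lay between 1.19 and 3.25 TPM in the WT libraries and between 0.0703 and 0.291 TPM in the cGAS-/- libraries. All 11 of the 13 macrophage markers with a row were above 0 in every group. Summed B cell markers, mostly Ighm and Igkc, lay at 108 to 134 TPM in WT UT, 30.6 to 44.6 in WT LPS, 19.9 to 28.4 in cGAS-/- UT and 2.99 to 8.70 in cGAS-/- LPS. Pax5, which defines B cells, was at most 0.0221 TPM in any library. Summed neutrophil markers ran at 139 to 213, 35.5 to 353, 52.9 to 126 and 46.4 to 59.9 TPM in the same order of groups, with Elane at 0 in all 3 cGAS-/- UT libraries. Summed fibroblast markers lay at 7.23 to 9.22 TPM in WT UT and 2.06 to 3.81 TPM in cGAS-/- UT. Markers of T and NK cells, dendritic cells and erythroid cells summed to at most 20.7 TPM in any library. In bulk RNA, fewer cells of a type and less RNA per cell cannot be told apart.

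The first question was how LPS moved these genes in each genotype. In WT BMDMs, Nos2, Ass1 and Slc7a2 rose and Odc1 fell, while Asl, Srm and Slc7a1 did not pass the test (limma on log2(TPM + 1), Benjamini-Hochberg adjusted over 11887 genes, adjusted p under 0.05). In cGAS-/- BMDMs the same 3 genes rose and Odc1 fell again. So 3 of 7 genes rose in WT against 4.31% of all genes tested, and 3 of 7 rose in cGAS-/- against 4.76% of all genes tested. Of all genes, 23.3% fell in WT and 9.06% fell in cGAS-/-, against 1 of 7 here in either genotype. Past a log2 fold change of 2 as well, 2 of these genes rose in WT (1.43% of all genes) and 3 in cGAS-/- (1.94% of all genes). Over all genes tested, the middle log2 fold change was -0.46 in WT and -0.20 in cGAS-/-. Rescaling with TMM factors brought these medians to -0.05 and -0.00. It also turned the split of calls over all genes in WT from 512 higher and 2774 lower to 956 higher and 1379 lower. In cGAS-/- the split of 566 higher and 1077 lower became 839 and 795 with TMM factors, 814 and 985 with quantile normalization, and 517 and 2099 with a common protein-coding total. Quantile normalization gave 966 and 1479 in WT.

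**Figure D1:**
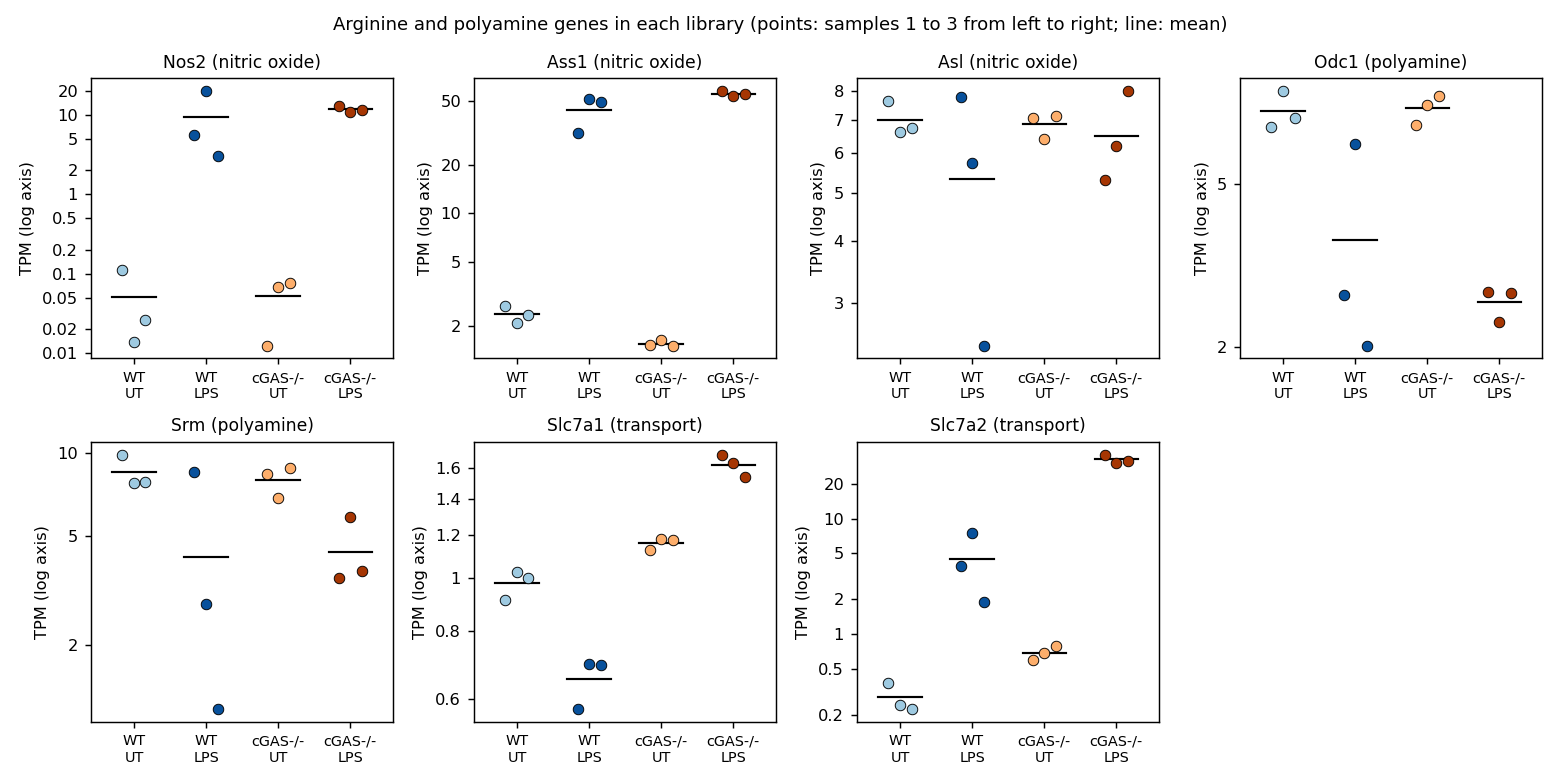
TPM of each of the 7 genes (vertical log axis, its range set per gene) in the 12 libraries, grouped along the horizontal axis by genotype and treatment, WT on the left. Points are libraries 1 to 3 of a group from left to right and lines are group means: Nos2, Ass1 and Slc7a2 sit higher in every LPS-treated library than in every untreated library of their genotype, and Slc7a2 reaches 30.4 to 35.8 TPM only in LPS-treated cGAS-/- cells.

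Nos2 (chromosome 11, 78811613 to 78851080, plus strand, GRCm39) was close to silent without LPS. Its values were 0.112, 0.0138 and 0.0265 TPM in WT UT and 0.0125, 0.0675 and 0.0757 TPM in cGAS-/- UT. With LPS they were 5.59, 19.8 and 3.06 TPM in WT and 12.8, 10.7 and 11.4 TPM in cGAS-/-. Every treated library lay above every untreated library, and the WT values spread over a wider range that enclosed the cGAS-/- values. On the log2(TPM + 1) scale, which understates changes of low genes, Nos2 rose by 2.97 ± 0.45 (SE) in WT (limma adjusted p = 8.4e-04) and by 3.59 ± 0.45 in cGAS-/- (limma adjusted p = 2.69e-04). With a pseudocount of 0.1 in place of 1, these values were 5.61 and 6.30, and with 5 they were 1.35 and 1.72. The WT value was 2.30 without the second LPS-treated WT library and 3.48 without the third, both passing.

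Ass1 (chromosome 2, 31352181 to 31410862, plus strand) rose with the smallest adjusted p-values of the set. It stood at 2.66, 2.07 and 2.32 TPM in WT UT and at 31.3, 51.4 and 48.9 TPM in WT LPS. In cGAS-/- cells it went from 1.51, 1.62 and 1.5 TPM untreated to 57.4, 53.8 and 54.9 TPM with LPS. The groups did not overlap in either genotype, and all 3 LPS-treated cGAS-/- values lay above the highest LPS-treated WT value. The rise was 3.71 ± 0.23 (log2, SE) in WT (limma adjusted p = 2.27e-06) and 4.47 ± 0.23 in cGAS-/- (limma adjusted p = 5.08e-07). With a pseudocount of 5 it was 2.71 and 3.21, with 0.1 it was 4.14 and 5.08, all passing. TMM factors gave 4.37 and 4.68, also passing. Ass1 shares 70.4% of its main transcript with the pseudogene Gm5424 (99.5% identity over 1240 bases). Gm5424 was listed at 0.405 TPM or less in every library.

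Asl (chromosome 5, 130040099 to 130058088, minus strand), the enzyme after Ass1 in the same cycle, did not follow it. Its values were 7.65, 6.63 and 6.74 TPM in WT UT and 7.78, 5.74 and 2.46 TPM in WT LPS. The cGAS-/- values were 7.08, 6.40 and 7.13 TPM untreated and 5.29, 6.20 and 8.0 TPM with LPS. All 4 groups overlapped. The fitted difference was -0.44 (95% interval -1.12 to 0.24, limma adjusted p = 0.293) in WT and -0.08 (interval -0.76 to 0.59, limma adjusted p = 0.919) in cGAS-/-. The WT value was -0.73 (adjusted p = 0.077) without the first LPS-treated library and -0.056 (adjusted p = 0.824) without the third. With TMM factors the sign turned in both genotypes, to 0.19 and 0.19. The ratio of Ass1 to Asl TPM, which compares the same pair of genes across libraries, was 0.211 to 0.347 in the 6 untreated libraries and 4.03 to 19.9 in the 6 LPS-treated libraries.

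Odc1 (chromosome 12, 17594383 to 17601507, plus strand), the first step from ornithine to polyamines, fell in both genotypes. It stood at 6.89, 8.42 and 7.23 TPM in WT UT and at 2.68, 6.25 and 2.01 TPM in WT LPS. Without cGAS it stood at 6.96, 7.81 and 8.18 TPM untreated and at 2.72, 2.30 and 2.70 TPM with LPS. All treated libraries lay below all untreated libraries, the second LPS-treated WT library by the least. Odc1 fell by 0.98 ± 0.29 on the log2 scale in WT (limma adjusted p = 0.0293) and by 1.28 ± 0.29 in cGAS-/- (limma adjusted p = 0.0125). With TMM factors the WT value was -0.38 (limma adjusted p = 0.16) and the cGAS-/- value was -1.0 (limma adjusted p = 0.00265). The WT call was also lost without any 1 WT UT library or the first WT LPS library (-0.86 to -1.03, adjusted p 0.0658 to 0.0979). Quantile normalization (-0.45, adjusted p = 0.0783), no filter (adjusted p = 0.0526) and only the samples compared (adjusted p = 0.2) lost it as well. In all, 8 of 21 other settings lost the WT call. The cGAS-/- call was lost without the third UT library (-1.23, adjusted p = 0.053) or the second LPS library (-1.22, adjusted p = 0.0563). Odc1 shares 59.9% of its main transcript with 7 other genes, the longest match being Gm9260 at 95.1% identity over 1398 bases. The 4 of these with a row reached up to 2.73 TPM in a library, so reads of Odc1 and its copies may have been split.

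Srm (chromosome 4, 148675940 to 148681792, plus strand), the next polyamine enzyme, had values of 9.86, 7.80 and 7.82 TPM in WT UT and 8.54, 2.83 and 1.17 TPM in WT LPS. For cGAS-/- the values were 8.34, 6.86 and 8.79 TPM untreated and 3.51, 5.84 and 3.71 TPM with LPS. The groups overlapped in WT through the first LPS-treated library and did not overlap in cGAS-/-. The fitted differences, -1.14 ± 0.43 in WT (limma adjusted p = 0.0705) and -0.77 ± 0.43 in cGAS-/- (limma adjusted p = 0.316), did not pass. Without the first LPS-treated library the WT difference was -1.71 (adjusted p = 0.00263), without the third it was -0.64 (adjusted p = 0.164), with sample weights it was -0.49 (adjusted p = 0.512), and with a common protein-coding total it was -1.22 (adjusted p = 0.0143). In cGAS-/-, Srm passed with a common protein-coding total (-1.01, adjusted p = 0.0497), with only the samples compared (-0.77, adjusted p = 0.0193) and with sample weights (-0.74, adjusted p = 0.00567).

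Slc7a2 (chromosome 8, 41315431 to 41375345, plus strand), which encodes the CAT-2 arginine transporter, rose in both genotypes. It went from 0.381, 0.247 and 0.226 TPM in WT UT to 3.87, 7.55 and 1.88 TPM in WT LPS. In cGAS-/- cells it went from 0.594, 0.686 and 0.785 TPM to 35.8, 30.4 and 31.4 TPM. No neighbouring groups overlapped in the order WT UT, cGAS-/- UT, WT LPS, cGAS-/- LPS. The rise was 1.94 ± 0.32 in WT (limma adjusted p = 0.00137) and 4.31 ± 0.32 in cGAS-/- (limma adjusted p = 7.08e-06). These values depend on the pseudocount: they were 3.37 and 5.38 with 0.1 in place of 1, and 0.79 and 2.72 with 5, all passing. Slc7a2 shares 3.12% of its main transcript with 75 other genes, the longest match being D330023K18Rik at 96.1% identity over 129 bases. The 49 of these with a row reached up to 96.9 TPM in a library, so a small part of its reads may belong to them.

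Slc7a1 (chromosome 5, 148264220 to 148336848, minus strand), the CAT-1 transporter found in most cells, did not pass the test in either genotype. It measured 0.914, 1.03 and 1.00 TPM in WT UT and 0.575, 0.694 and 0.693 TPM in WT LPS. Its cGAS-/- values were 1.13, 1.18 and 1.18 TPM untreated and 1.69, 1.63 and 1.54 TPM with LPS. The treated WT values were all below the untreated ones, and the treated cGAS-/- values were all above them. Neither difference passed, at -0.26 ± 0.13 in WT (limma adjusted p = 0.159) and 0.28 ± 0.13 in cGAS-/- (limma adjusted p = 0.234). The cGAS-/- difference passed with only the samples compared (0.28, adjusted p = 0.0279) and with sample weights (0.28, adjusted p = 0.00651). The WT sign turned with TMM factors, to 0.10, and with quantile normalization, to 0.24. The ratio of Slc7a2 to Slc7a1 TPM ran from 0.225 to 0.665 in the untreated libraries, from 2.72 to 10.9 in LPS-treated WT and from 18.7 to 21.2 in LPS-treated cGAS-/- libraries.

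**Figure D2:**
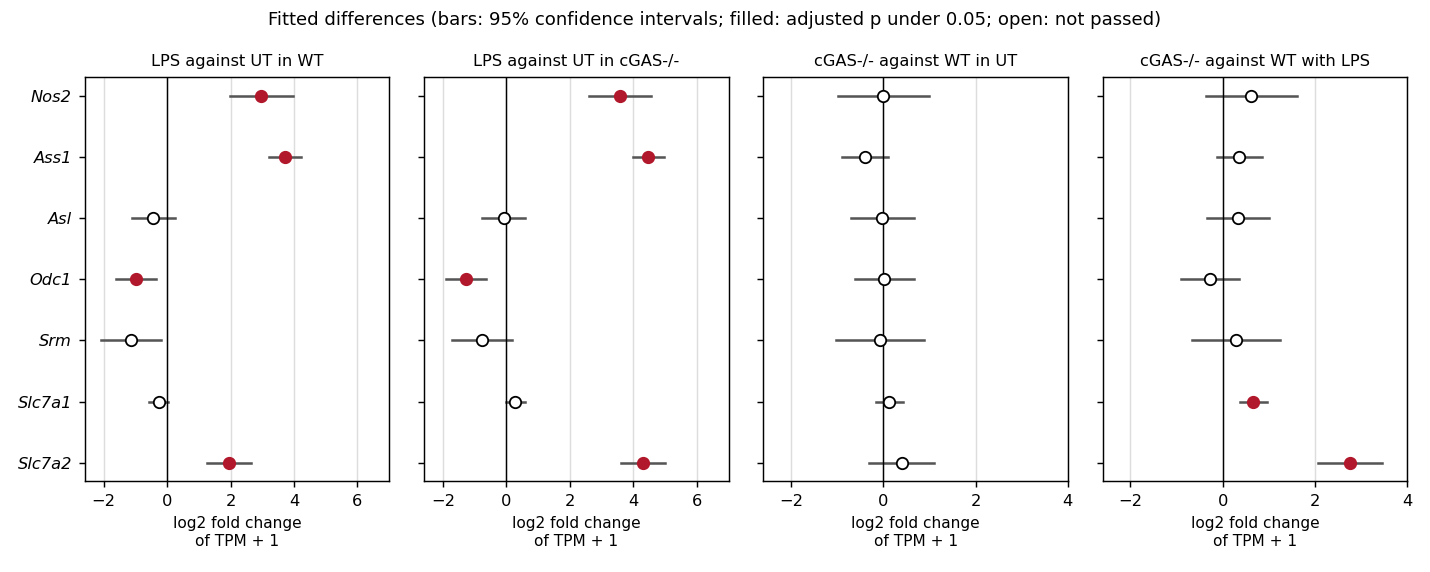
Fitted log2 fold changes of TPM + 1 (horizontal axis) with 95% confidence intervals for the 7 genes (rows) in 4 comparisons, LPS against UT in each genotype and cGAS-/- against WT in each treatment, with filled points for adjusted p under 0.05. The LPS panels show 3 filled genes to the right and Odc1 to the left in both genotypes, and in the genotype panels only Slc7a1 and Slc7a2 with LPS are filled.

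The second question was whether the genotypes differed. Without LPS, 0 of the 7 genes passed, where calls over all genes were 0.252% higher and 1.58% lower in the knockout (limma). At an unadjusted limma p under 0.05 the count was also 0 of 7, where a p of 0.0476 ranked 935 among the 11887 genes tested. Over all genes the split of 30 higher and 188 lower became 60 and 165 with quantile normalization. Ass1 was lower in all 3 untreated cGAS-/- libraries than in any untreated WT library (-0.39 ± 0.23, limma adjusted p = 0.884). Of 21 other settings, sample weights alone let any of the genes pass here, Ass1 at -0.37 (adjusted p = 0.017) and Slc7a2 at 0.39 (adjusted p = 0.0382).

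With LPS, Slc7a2 and Slc7a1 passed and were higher in cGAS-/- than in WT cells, 2 of 7 genes against 1.36% of all genes called higher and 1% called lower. Slc7a2 had the larger difference, 2.76 ± 0.32 on the log2 scale (limma adjusted p = 0.00127), which is 6.78-fold on the TPM + 1 scale. It was 1 of the 0.278% of genes past both thresholds. Its means were 4.43 ± 2.87 TPM (SD, n = 3) in LPS-treated WT and 32.5 ± 2.85 TPM in LPS-treated cGAS-/- cells. Slc7a2 passed in 20 of 21 other settings, between 2.03 and 3.16. The exception was the fit on only the 6 libraries compared, where the value was the same and the adjusted p was 0.16. The removal of an untreated library left the value at 2.76 and could change only its adjusted p. Slc7a1 differed by 0.66 ± 0.13 (limma adjusted p = 0.0286), from 0.575 to 0.694 TPM in WT to 1.54 to 1.69 TPM in cGAS-/-. Its call was lost in 17 of 21 other settings, with adjusted p up to 0.531. The removal of any 1 untreated or any 1 LPS-treated cGAS-/- library was enough (0.64 to 0.69, adjusted p 0.0597 to 0.15). The B cell markers given above also differed between LPS-treated WT and cGAS-/- libraries without overlap. So did summed fibroblast markers (5.86 to 17.1 TPM in WT, 2.79 to 3.91 in cGAS-/-) and summed macrophage markers (20850 to 30040 TPM in WT, 36410 to 36750 in cGAS-/-). Lyz2, which encodes a lysozyme, made up most of the macrophage sum (15700 to 26380 TPM in WT LPS libraries, 32930 to 33430 in cGAS-/- LPS libraries). The macrophage markers Ctss (2872 to 3662 TPM in WT, 1793 to 1919 in cGAS-/-) and Mrc1 (3.85 to 10.9 TPM in WT, 0.857 to 1.10 in cGAS-/-) were lower in every LPS-treated cGAS-/- library, without overlap. The part of these markers in the results was not tested.

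The other 5 genes did not pass between LPS-treated genotypes. Nos2 differed by 0.62 (interval -0.37 to 1.6, limma adjusted p = 0.451) and rested on single LPS-treated WT libraries: it was 1.29 (adjusted p = 0.00269) without the second and 0.11 (adjusted p = 0.898) without the third. Ass1, Asl, Srm and Odc1 lay at 0.36, 0.33, 0.29 and -0.28, with adjusted p from 0.385 to 0.711.

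**Figure D3:**
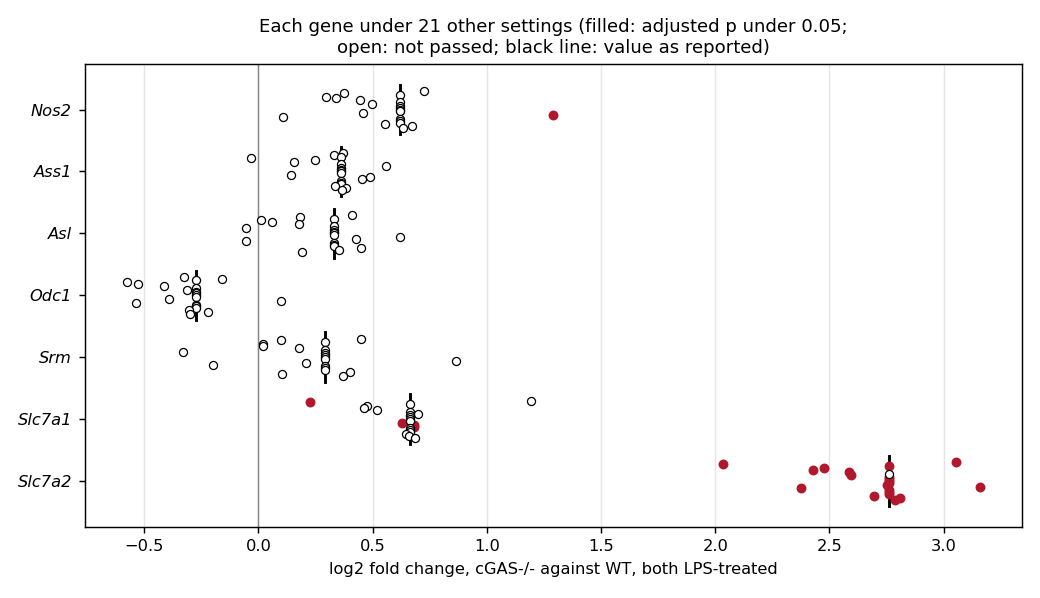
Log2 fold change of cGAS-/- against WT, both LPS-treated (horizontal axis), for each gene under 21 other settings, as points filled where the adjusted p was under 0.05 and with a black line at the value in the text. Slc7a2 stays between 2.03 and 3.16 and is open once, Slc7a1 is mostly open, and Nos2 is filled once.

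The third question was whether the effect of LPS itself differed between genotypes. In this fit only Slc7a2 passed the interaction term, 1 of 7 genes against 0.732% of all genes higher and 0.168% lower in cGAS-/-. That split, 87 higher and 20 lower, became 101 and 50 with quantile normalization. The LPS effect on Slc7a2 was larger in cGAS-/- cells by 2.37 ± 0.45 on the log2 scale (limma adjusted p = 0.0395). Only the samples compared means all 12 libraries here, so that setting repeats this fit. The Slc7a2 value stayed between 1.93 and 2.76 in the 21 other settings, and the call was lost in 13 of them. These included the removal of any 1 UT, any 1 cGAS-/- LPS or the first WT LPS library (2.30 to 2.41, adjusted p 0.0613 to 0.134). For Slc7a1 the LPS effect was 0.54 ± 0.19 larger in cGAS-/- (limma adjusted p = 0.306), and it passed in 1 other setting, without the second LPS-treated WT library (0.55, adjusted p = 0.0451). For Ass1 the LPS effect was 0.75 ± 0.32 larger in cGAS-/- (limma adjusted p = 0.415) and for Nos2 0.62 ± 0.63 (limma adjusted p = 0.713). The Nos2 value was 1.29 (adjusted p = 0.0188) without the second LPS-treated WT library and 0.11 (adjusted p = 0.94) without the third.

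Promoters of 3 of the 7 genes were found in the RefSeq promoter table (GRCm38.p6, 250 bases before to 50 bases after each start), those of Ass1, Odc1 and Slc7a1. Ass1 and Odc1 are shown because they moved in opposite directions with LPS in both genotypes. Capitals mark CACGTG, the E box read by Myc and HIF family factors. Both are given 5′ to 3′ on the plus strand, Ass1 at chr2:31470020-31470319 and Odc1 at chr12:17544623-17544922.
Ass1: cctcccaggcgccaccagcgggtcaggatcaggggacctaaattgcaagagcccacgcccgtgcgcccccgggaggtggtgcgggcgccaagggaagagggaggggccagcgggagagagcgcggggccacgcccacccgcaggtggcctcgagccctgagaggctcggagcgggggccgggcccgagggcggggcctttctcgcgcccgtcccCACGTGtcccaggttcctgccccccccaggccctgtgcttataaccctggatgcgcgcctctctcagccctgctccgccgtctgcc
Odc1: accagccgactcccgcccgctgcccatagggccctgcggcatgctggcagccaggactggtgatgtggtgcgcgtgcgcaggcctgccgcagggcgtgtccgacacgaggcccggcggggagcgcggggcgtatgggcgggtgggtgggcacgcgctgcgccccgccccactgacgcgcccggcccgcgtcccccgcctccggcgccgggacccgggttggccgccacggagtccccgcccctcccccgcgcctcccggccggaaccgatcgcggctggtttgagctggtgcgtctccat
The Ass1 window holds 1 E box, its first base at position -36 from the start, and the Odc1 window holds none. Of all 32851 promoter windows of this length, 7.15% hold an E box on either strand. A loose kappa B pattern, GGG and CC with any 5 bases between them, matched 6 times in Ass1, some of the matches overlapping, and 1 time in Odc1, but 50.8% of all windows hold it. TGANTCA (AP-1), TTNNGNAA (C/EBP) and TTCNNNGAA (GAS) were in neither, and are held by 7.81%, 40.7% and 8.3% of all windows. Of the 2 Slc7a1 starts listed, 1 held the AP-1 pattern and 5 kappa B matches, and the other held 1 C/EBP and 1 GAS match. GC content was 74% for Ass1 and 78% for Odc1, against a median of 52.7% over all windows. These matches describe letters and not binding.

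Around these 7 genes, 87 further genes of arginine, nitric oxide and polyamine biology were listed, of which 61 had a row and 49 were tested. In WT, 3 rose and 17 fell with LPS, where 4.31% of all genes rose and 23.3% fell, and the median log2 fold change was -0.60 against -0.46 for all genes. In cGAS-/-, 3 rose and 5 fell, where 4.76% of all genes rose and 9.06% fell, and the median was -0.22 against -0.20. The 5 that fell in cGAS-/- were thus near the share of all genes. These counts moved with the settings. In WT they were 5 higher and 9 lower with TMM factors (956 and 1379 of all genes). Without any 1 WT UT library they were 3 and 9 (346 to 357 and 1514 to 1633 of all genes). Without the second LPS-treated WT library they were 3 and 34 (646 and 5124 of all genes). With only the samples compared they were 0 and 3 (167 and 549 of all genes). In cGAS-/- they were 8 higher and 6 lower with TMM factors (839 and 795 of all genes). Without the third LPS-treated WT library they were 9 and 17 (1089 and 2569 of all genes). With sample weights they were 11 and 23 (1573 and 4173 of all genes). Between genotypes, with LPS, without LPS, and in the interaction, 0 of 49 passed by limma. At an unadjusted limma p under 0.05 there were 11, 1 and 3 of 49. Among the 11887 genes tested, an unadjusted limma p of 0.0442 with LPS ranked only 2054. Without LPS a p of 0.0476 ranked 935, and in the interaction a p of 0.0439 ranked 1194. The unadjusted counts thus show nothing particular to this list. With LPS the adjusted calls were 18 higher and 1 lower without the second LPS-treated WT library (2854 and 461 of all genes). They were 4 and 2 without the third (455 and 516), and 0 and 1 without the first (143 and 193). With TMM factors, quantile normalization or sample weights they were 2 higher (267, 331 and 181 of all genes higher). A pseudocount of 5 gave 1 higher (221 of all genes higher). Without LPS they were 2 higher and 5 lower with sample weights (415 and 954 of all genes). With only the samples compared they were 2 and 2 (400 and 841 of all genes). In the interaction they were 6 higher without the second LPS-treated WT library (1374 of all genes higher). Without the third they were 1 higher and 1 lower (346 and 190), and with sample weights 1 higher (229 of all genes higher).

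The genes that rose in both genotypes were all from the list of transcription factors of macrophage activation, where 3 of 9 tested rose in each genotype, against 4.31% of all genes in WT and 4.76% in cGAS-/-. In WT the Cebpb, Hif1a and Irf1 calls were each kept in 20 of 21 other settings and lost with only the samples compared. Cebpb, a C/EBP factor, went from 120 to 159 TPM in WT UT to 678, 669 and 234 TPM in WT LPS and from 165 to 199 TPM in cGAS-/- UT to 585 to 640 TPM in cGAS-/- LPS. Its log2 changes were 1.76 and 1.78 (limma adjusted p = 0.0053 and 0.00662). Hif1a, the hypoxia-inducible factor, rose by 1.41 and 2.23 (limma adjusted p = 0.00453 and 2.82e-04), and Irf1 by 1.15 and 0.93 (limma adjusted p = 0.0108 and 0.0429). With TMM factors Cebpb rose by 2.51 and 2.10, Hif1a by 2.12 and 2.53, and Irf1 by 1.82 and 1.18, all passing. The Irf1 call in cGAS-/- was kept in 8 of 21 other settings and was lost with a common protein-coding total (0.68, adjusted p = 0.217). Pparg, a lipid-sensing nuclear receptor, fell from 7.99 to 9.16 TPM in WT UT to 0.0413 to 0.874 TPM in WT LPS, and from 10.3 to 11.5 TPM to 0.212 to 0.323 TPM in cGAS-/- cells. Irf8 also passed in WT, at -0.85 (limma adjusted p = 0.0447), a call that was lost in 16 of 21 other settings. Without the third LPS-treated WT library Irf8 was at -0.50, still passing (limma adjusted p = 0.00512).

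Of 5 tested enzymes that use arginine or ornithine elsewhere, Oat (ornithine aminotransferase), Gatm and Gamt (creatine synthesis) fell in WT by 2.50, 1.39 and 1.70 on the log2 scale (limma adjusted p = 0.0099, 0.0445 and 0.00274). Gamt also fell in cGAS-/-, by 1.66 (limma adjusted p = 0.00407). Without the third LPS-treated WT library Oat fell by 1.61 and Gatm by 0.70, both still passing. The Gatm call was kept in 8 of 21 other settings, and Gatm had -0.78 (adjusted p = 0.109) with TMM factors. Of 11 genes of polyamine synthesis, turnover and transport, Mtap (salvage of methylthioadenosine), Mat2a (S-adenosylmethionine synthesis) and Atp13a2 (lysosomal polyamine export) fell in WT, and 0 of 11 passed in cGAS-/- (1 at an unadjusted p under 0.05 by limma). In cGAS-/- an unadjusted limma p of 0.0344 ranked 2645 among the 11887 genes tested. Of all genes 23.3% and 9.06% fell, so the counts show nothing particular to this list. With TMM factors none of these 3 passed (adjusted p = 0.158, 0.346 and 0.678). Oaz1, the antizyme that targets ornithine decarboxylase for degradation, did not pass in any comparison. It lay at 80.9 to 84.6 TPM in untreated WT, at 71.5, 43.2 and 133 TPM in LPS-treated WT, the third library being the highest, and at 62.8 to 81.0 TPM untreated and 46.4 to 49.4 TPM treated in cGAS-/- cells.

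In the list of nitric oxide synthesis and control, 7 genes were tested, of which 2 fell in WT and 1 in cGAS-/-. Of all genes 23.3% fell in WT and 9.06% in cGAS-/-, so these counts show nothing particular to this list. Nostrin, which traffics endothelial nitric oxide synthase, fell by 2.47 in WT and 2.27 in cGAS-/- (limma adjusted p = 4.38e-04 and 9.4e-04). Qdpr, which regenerates the synthase cofactor tetrahydrobiopterin, fell by 1.46 in WT (limma adjusted p = 0.0234). Qdpr fell by 0.84 without the third LPS-treated WT library, still passing, and did not pass with TMM factors (-0.92, adjusted p = 0.0773). Among 11 genes of arginine sensing for mTORC1, 6 fell in WT (Castor1, Castor2, Mios, Nprl3, Rraga and Rragc) and 2 in cGAS-/- (Castor1 and Rragc), against 23.3% and 9.06% of all genes. In WT, Castor2 was kept in 4 of 21 other settings (-0.09 with TMM factors, adjusted p = 0.801), Mios in 15, and Rraga and Nprl3 each in 17. Mios was lost with TMM factors (-0.14, adjusted p = 0.527). Rraga went from -1.64 to -0.98 without the third LPS-treated WT library and to -0.92 with TMM factors, passing in both. Rragc in WT went from -1.33 to -0.63 with TMM factors, also passing. Rragc in cGAS-/- was kept in 9 of 21 other settings. Castor1, a cytosolic arginine sensor, fell by 1.76 and 1.44 (limma adjusted p = 0.00108 and 0.00489). Of the 4 genes that make or carry hypusine, the modified lysine built from spermidine, Eif5a2 fell in WT by 1.67 (limma adjusted p = 0.00678). This 1 of 4 was near the 23.3% of all genes that fell in WT. Neither tested gene of the further arginine transport list, Slc7a6 and Slc25a15, passed in any comparison.

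The genes whose pattern over the 12 libraries was most like that of Nos2, by Pearson correlation of log2(TPM + 1), were Thbs1 (0.993), Rapgef2 (0.991), Il23r (0.991), Tarm1 (0.987) and Gm15987 (0.986). The points are libraries of 4 groups, share the LPS contrast and are given without a p.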

How the data were processed

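RNA of 12 BMDM libraries was sequenced by the authors from stranded mRNA libraries in paired ends. Per the labels and the study's methods the authors used fastp, STAR and kallisto with build GRCm39, and named edgeR and limma for testing; versions are not given in the sources used here. The authors deposited 1 table of normalized values per gene symbol. The unit, TPM averaged over the transcripts of a symbol, was inferred from the deposited values, which sum to less than 1000000 in each library, and no read counts were given, so no counting interval is printed and precision rests on 3 libraries per group.

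Values were taken as log2(TPM + 1) without rescaling. Genes with at least 1 TPM in at least 3 of 12 libraries, after each library was brought to a total of 1000000 for the filter only, were tested (11887 of 38739). A mean per group was fitted over all 12 libraries with limma 3.58.1 in R 4.3.3 with a trend, and p-values were adjusted over all genes tested (Benjamini-Hochberg). A gene passed at an adjusted p under 0.05, and past both thresholds where the log2 fold change was also beyond 2. The steps were tested on simulated data. The 21 other settings were pseudocounts of 0.1 and 5, no filter, TMM factors (own code), quantile normalization, a common protein-coding total, a fit on only the samples compared, sample weights, a replicate block, and each library left out in turn. Gene positions are from GENCODE on GRCm39. Shared sequence was searched with blastn 2.17.0 at 95% identity or more over at least 100 bases. The 7 genes are described; other listed genes are named where they passed or were among the 2 highest of a list, and the 5 genes most like Nos2 are named. Results for a few genes, some of them chosen with these, and a planned comparison of the branches are not reported here. The members and lists were chosen with earlier results of these data known.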

Additional observations from a re-analysis of the deposited data

Results flagged for a closer look

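The effect of LPS on Slc7a2 differed between genotypes by the interaction term, 2.37 on the log2(TPM + 1) scale (SE 0.45, limma adjusted p = 0.0395). This call was lost in 13 of 21 other settings, with limma adjusted p up to 0.32 (pseudocount 0.1). Among them were the replicate block (adjusted p = 0.078) and the removal of any 1 untreated library. Of the 21, the fit on only the samples compared repeats this fit. LPS raised Slc7a2 from a mean of 0.285 to 4.43 TPM in WT and from 0.688 to 32.5 TPM in cGAS-/- cells, and all 3 LPS-treated cGAS-/- libraries lay above all 3 LPS-treated WT libraries. No formal search for single libraries far from the others was run on these groups of 3. The third LPS-treated WT library stood apart in its total, as given above, and had the lowest Slc7a2 value of its group, 1.88 TPM.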

How the results depend on the processing

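Counts of members passed were 3 to 5 for LPS in WT and 3 to 6 for LPS in cGAS-/-, against 4 in both. For cGAS-/- against WT with LPS (2 members passed) the count was 1 with a pseudocount of 0.1, no filter, TMM factors, quantile normalization, a common protein-coding total, sample weights or the replicate block, 0 with only the samples compared, and 1 to 3 with a library left out. Without LPS (0 members passed) it was 2 with sample weights and 0 with any library left out. For the difference of the LPS effects (1 of the members passed) it was 0 with a pseudocount of 0.1, no filter or the replicate block, and 0 to 3 with a library left out. The numbers of the libraries did not pair them: same-numbered libraries of different groups had correlated deviations of -0.031 to 0.038 over 18 pairs, against -0.064 to 0.051 over 36 other pairs. Beyond the counts above, the replicate block ended the calls of Slc7a1 between LPS-treated genotypes (adjusted p = 0.0777) and of Slc7a2 in the interaction (adjusted p = 0.078), and no other call of the 7 genes.

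No call of the 7 genes turned its direction. Values that did not pass and turned sign were, for LPS in WT, Asl (0.19 with TMM factors, 0.072 with quantile normalization) and Slc7a1 (0.10 and 0.24), and for LPS in cGAS-/- Asl (0.19 and 0.094, and -0.22 to 0.034 with a library left out). With LPS, cGAS-/- against WT gave -0.035 for Ass1 with TMM factors, and -0.055 for Asl and -0.33 for Srm with sample weights. With a library left out it ranged from -0.053 to 0.62 for Asl, -0.53 to 0.099 for Odc1 and -0.20 to 0.87 for Srm. Without LPS, Asl gave 0.0052 with TMM factors, 0.035 with quantile normalization and 0.016 with a common protein-coding total, and Odc1 gave -0.0019 with sample weights. With a library left out, Nos2 ranged from -0.023 to 0.044, Asl from -0.058 to 0.033, Odc1 from -0.029 to 0.10 and Srm from -0.14 to 0.024. The difference of the LPS effects was -0.032 for Asl and -0.25 for Srm with sample weights, and with a library left out it ranged from -0.029 to 0.64 for Asl, -0.56 to 0.075 for Odc1 and -0.12 to 0.94 for Srm. The cause of these changes was not tested.

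Low values limit these data: without read numbers, the depth behind Nos2 in untreated cells is unknown. The wide spread of the LPS-treated WT libraries entered the shared estimate of the spread for all groups. Where sample weights were used, WT LPS libraries 1 to 3 had weights of 0.346, 0.159 and 0.0352. The weights of the other libraries were 1.38 to 2.57. The LPS-treated WT group enters every comparison of genotypes with LPS and the interaction.

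Counts of all genes called, higher then lower, also moved. For LPS in WT (512 and 2774) they were 496 and 4241 with a common protein-coding total, 167 and 549 with only the samples compared, and 346 to 974 and 1514 to 5124 with a library left out. The second LPS-treated WT library was the one left out at 5124 here and at 2854 and 1374 below. For LPS in cGAS-/- (566 and 1077) they were 1505 and 3800 with only the samples compared, 1573 and 4173 with sample weights, and 370 to 1089 and 641 to 2569 with a library left out. For cGAS-/- against WT with LPS (162 and 119) they were 81 and 82 with a pseudocount of 0.1, 99 and 72 with no filter, 267 and 225 with TMM factors, 331 and 221 with quantile normalization, 2 and 3 with only the samples compared, 98 and 81 with the replicate block, and 28 to 2854 and 40 to 516 with a library left out. Without LPS (30 and 188) they were 11 and 81 with a pseudocount of 0.1, 65 and 251 with 5, 400 and 841 with only the samples compared, 415 and 954 with sample weights, and 13 to 143 and 72 to 503 with a library left out. For the interaction (87 and 20) they were 25 and 7 with a pseudocount of 0.1, 163 and 42 with 5, 113 and 40 with TMM factors, 96 and 32 with a common protein-coding total, 229 and 63 with sample weights, 41 and 13 with the replicate block, and 30 to 1374 and 8 to 190 with a library left out.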
